A study of Physcomitrium patens with 4 samples.

Results

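One hour of red light was compared with darkness in wild-type protonema of the moss Physcomitrium patens. The comparison sets 1 wild-type library against 1 wild-type library, which are 2 of the 4 libraries of the series. The libraries were picked by their labels, and all 32273 genes of the deposited tables were considered. Genes with under 10% multi-mapping reads in both wild-type libraries are called singly mapped and are reported first, and 30880 genes met this limit.

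Both groups were wild type of the ecotype Gransden2004, and the tissue was chloronema, the chloroplast-rich filaments that form the young protonema. The cultures were 10 days old and had been kept 3 days in the dark. The dark library was taken at time 0, and the red light library after 1 hour under a 660 nm LED with a fluence rate of 5 μmol m-2 s-1, at 25 °C. The pubs hy2 double mutant, described in the labels as deficient in phytochrome, was sampled in the same way, and its libraries are used below as a second pair and in setting the scaling of the libraries. A dark library of the later time is not part of the design, so the effect of red light and that of the elapsed hour cannot be told apart. With 1 library per group there is no replicate error, so higher and lower below describe these libraries and no p-value is given.

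Red light is perceived in plants by phytochromes, photoreceptors whose bilin chromophore switches between a form that absorbs red light and one that absorbs far-red light. Red light converts the receptor to its active form, which in flowering plants enters the nucleus and acts on transcription factors, and transcript levels of many genes shift soon after a first light exposure. In mosses phytochromes are known for their part in the direction of growth and in the branching of protonemal filaments. The deposited tables carry gene identifiers without names, and 0 of these identifiers occurred in the reference gene table. No gene below is therefore given a function, and chloronema markers could not be looked up.

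The wild-type dark library held 17560594 reads on genes and the wild-type red light library 24560044, 1.40 times as many. The 10 most abundant genes took 11.0% of the dark reads and 9.74% of the red light reads. Singly mapped genes held 90.5% and 90.6% of the reads. Of these genes, 8425 had 0 reads in both libraries and 17312 had at least 50 reads in both together. Those 17312 are called measured. A gene was counted as higher or lower when the scaled libraries differed at least 2-fold and 1 lay outside the fold's 95% counting interval (exact, from the read numbers). Intervals cover the counting error of reads only, and PCR copies cannot be told from separate molecules.

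After red light, transcripts of 1020 singly mapped genes were higher and those of 924 were lower. These were 5.89% and 5.34% of the 17312 measured genes, or 11.2% in both directions. Which direction held more genes depended on the scaling, since the authors' RPKM gave 942 higher and 1033 lower. Most transcripts stayed near their dark level: 54.5% of the measured genes had a fold between 0.8 and its inverse, and the middle of the distribution, from the 25th to the 75th percentile, ran from -0.30 to 0.27 on the log2 scale. The 5th and 95th percentiles were -1.04 and 1.11. Among the 12064 genes with at least 500 reads the spread was narrower, from -0.76 to 1.00, and the SD across genes was 0.60 against 0.71 for all measured genes. The counting interval lay wholly between 0.8 and its inverse for 26.98% of the measured genes.

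The numbers in the 2 directions were near each other, but their sizes were not. Of the higher genes 437 differed at least 3-fold, 258 at least 4-fold, 66 at least 8-fold and 30 at least 16-fold. Of the lower genes it was 308, 157, 36 and 12. The higher genes together took 2.80% of the dark reads and 8.84% of the red light reads. The lower genes took 4.39% and 1.65%. On the scale of scaled counts per 1e6 reads (CPM, corrected for library composition), the sum over the higher genes increased by 60124 and the sum over the lower genes decreased by 25826. A typical higher gene went from a median of 5.49 to 16.4 RPKM (reads per kilobase of gene and per 1e6 reads, as deposited by the authors). A typical lower gene went from 7.24 to 2.496 RPKM. The remaining 15368 measured genes held 83.1% and 79.96% of the reads.

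**Figure D1:**
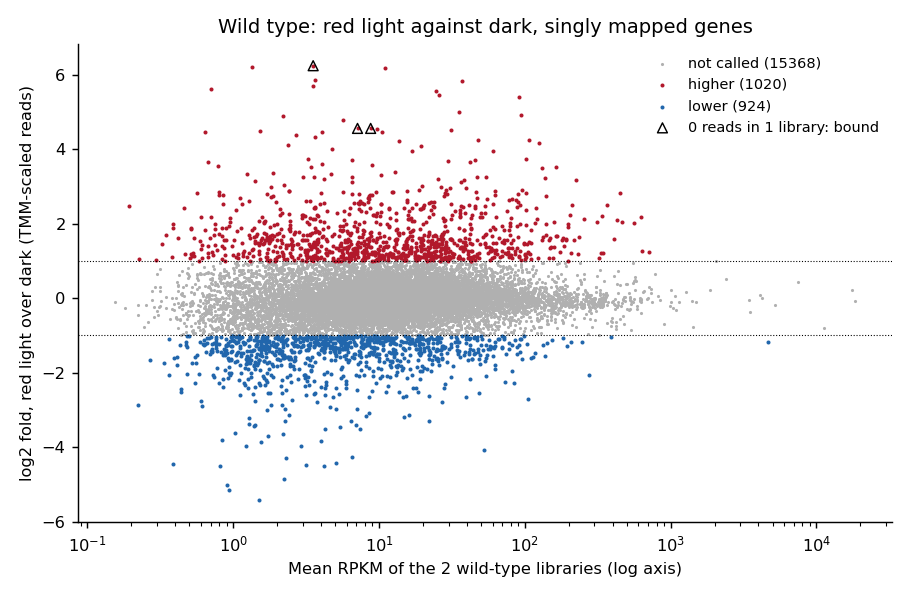
Each point is 1 of 17312 singly mapped genes with at least 50 reads, with the mean RPKM of both wild-type libraries on a log axis and the log2 fold of red light over dark; dotted lines mark 2-fold. The 1020 higher genes (red) reach further from 0 than the 924 lower genes (blue), and triangles mark genes with 0 reads in 1 library, whose fold is a bound.

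The leading genes in the upward direction had few dark reads, which ranking by fold favours. Pp1s55_88V6 had 0 dark reads and gave 308 reads after red light, 75.4-fold more against 3 dark counts (interval from 61.0 upward). It is 1.551 kb long and its RPKM was 0 before and 7.07 after red light. Pp1s60_2V6 gave 1 dark read and 100 after red light, 73.4-fold more, with an interval of 12.9 to 2929. With so few dark reads the size of such folds is poorly known, although both intervals lie far from 1.

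Other leading genes combined a large fold with a high level in red light. Pp1s370_29V6 went from 51 to 3966 reads and from 1.34 to 73.2 RPKM, a fold of 57.1 (43.3 to 76.8). Pp1s15_309V6 went from 30 to 1935 reads, 47.4-fold higher (33.1 to 70.4). Pp1s25_159V6 went from 79 to 4520 reads and from 4.42 to 178 RPKM, 42.0-fold higher (33.6 to 53.2). These 3 genes had the narrowest intervals among the 10 highest folds, and each of them was expressed above 40 RPKM in red light.

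Pp1s37_306V6 belonged to the same class and went from 20 to 1181 reads, 43.4-fold higher (28.0 to 71.3). Pp1s370_52V6, whose identifier shares its first part with that of Pp1s370_29V6, had 4 and 316 reads, a fold of 58.0 (22.4 to 214). Pp1s71_227V6 had 2 and 141 reads, 51.8-fold higher (14.1 to 432). These genes were at or under 1.21 RPKM in the dark, as were all but 2 of the 10 leading genes.

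The remaining genes of the top 10 rested on 1 dark read each. Pp1s1_366V6 had 1 and 98 reads and is only 0.162 kb long, so its RPKM of 21.5 in red light stands for few reads. Pp1s118_26V6 had 1 and 67 reads and drew up to 6.93% of its reads from shared sequence. In the dark all of the 10 leading genes had 79 reads or fewer.

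The leading genes in the downward direction were weakly expressed in both libraries, and ranking by fold favours few reads in red light. Pp1s54_286V6 went from 63 dark reads to 2 and from 2.95 to 0.0658 RPKM, a fold of 0.0233 (0.00276 to 0.0878). Pp1s56_122V6 went from 52 to 2 reads, a fold of 0.0282 (0.00333 to 0.107). Pp1s317_21V6 went from 71 to 3 reads, a fold of 0.0310 (0.00625 to 0.0944). The other members of this set were alike in level, with 48 to 440 dark reads and 2 to 28 red light reads over all 10.

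The best-measured of the 10 were Pp1s20_367V6 and Pp1s223_38V6. Pp1s20_367V6 fell from 440 to 28 reads and from 9.69 to 0.433 RPKM, a fold of 0.0467 (0.0307 to 0.0685). Pp1s223_38V6 fell from 218 to 13 reads and from 8.10 to 0.339 RPKM, a fold of 0.0438 (0.0229 to 0.0765). None of the 10 lowest genes exceeded 10 RPKM in the dark, whereas 4 of the 10 highest exceeded 40 RPKM in red light.

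**Figure D2:**
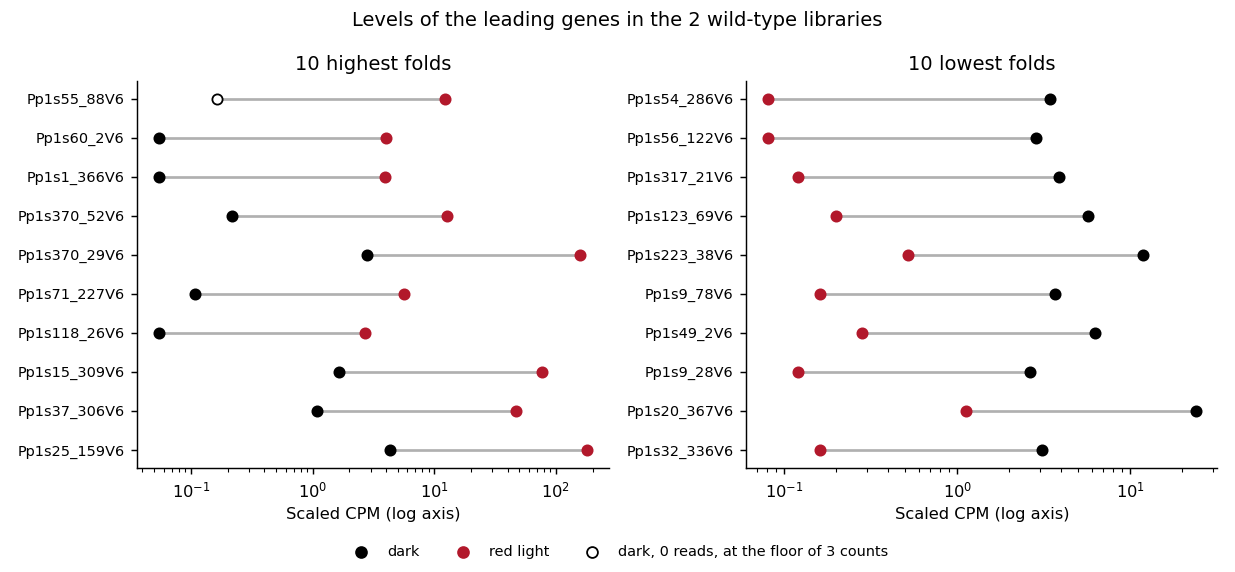
Scaled CPM on a log axis in the dark (black) and in red light (red) for the 10 genes with the highest and the 10 with the lowest fold, 1 library each. The open point is Pp1s55_88V6 with 0 dark reads, drawn at the floor of 3 counts; the lower genes on the right start at 24.0 CPM or less, while 3 of the genes on the left end above 70 CPM.

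No singly mapped measured gene had 0 reads in red light. Of those with 0 reads in the dark, the 3 with the most red light reads are given here. Besides Pp1s55_88V6 these were Pp1s109_69V6 (0.240 kb) and Pp1s52_29V6 (0.195 kb), each with 0 dark reads and 96 red light reads. Against the floor of 3 counts in the dark library both were 23.5-fold higher, with an interval from 18.7 upward. By RPKM, 23 genes were under 1 in the dark and at or over 5 in red light, and 12 genes went the other way. With 10 RPKM as the upper limit it was 7 genes and 1 gene.

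The largest gains in reads were those of abundant transcripts. Among genes that passed the 2-fold rule the largest gain was that of Pp1s121_168V6, which went from 5686 to 54514 reads and from 117 to 785 RPKM, 7.04-fold higher (6.85 to 7.24). It gained 1874 scaled CPM, 3.12% of the summed gain of the higher genes. Pp1s444_20V6 went from 8681 to 48969 reads and from 186 to 737 RPKM, 4.14-fold higher (4.05 to 4.24). The next genes were of the same kind, abundant in the dark and higher by a moderate factor.

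Pp1s442_22V6 went from 231 to 889 RPKM with 6358 and 34836 reads, 4.02-fold higher (3.92 to 4.13). Pp1s223_59V6 went from 127 to 498 RPKM with 5939 and 33152 reads, 4.10-fold higher (3.99 to 4.21). Pp1s118_232V6, the most abundant of these genes in the dark, went from 438 to 981 RPKM with 16137 and 51467 reads, 2.34-fold higher (2.30 to 2.38). By RPKM the largest gain among genes past the rule was that of the shorter Pp1s267_21V6, from 237 to 1018 RPKM with 4504 and 27611 reads, 4.50-fold higher (4.36 to 4.65). The gain was spread over many genes: 5 genes made 10% of it, 68 genes 50% and 194 genes 75%.

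The loss over the lower genes was more concentrated. Pp1s34_442V6, the fourth gene by RPKM in the dark, went from 130005 to 77761 reads and from 6517 to 2737 RPKM, a fold of 0.439 (0.435 to 0.443). It made 15.4% of the summed loss of the lower genes. Pp1s88_47V6 went from 27082 to 8902 reads and from 449 to 104 RPKM, a fold of 0.241 (0.236 to 0.247). The 5 largest losses of called genes made 24.8% of their total, against 11.0% for the 5 largest gains.

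Further large losses among genes past the rule were found for Pp1s9_16V6, Pp1s237_84V6 and Pp1s70_166V6. Pp1s9_16V6 went from 527 to 247 RPKM with 17721 and 11812 reads, a fold of 0.490 (0.478 to 0.501), close to the 2-fold limit. Pp1s237_84V6 went from 174 to 59.6 RPKM with 13635 and 6646 reads, a fold of 0.358 (0.348 to 0.369). Pp1s70_166V6 went from 183 to 27.1 RPKM with 7300 and 1540 reads, a fold of 0.155 (0.147 to 0.164), the largest relative loss among the 5.

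By RPKM the next losses among genes past the rule were those of Pp1s263_50V6 and Pp1s178_130V6. Pp1s263_50V6 went from 348 to 147 RPKM with 7892 and 4761 reads, a fold of 0.443 (0.427 to 0.459). Pp1s178_130V6 went from 279 to 110 RPKM with 7581 and 4253 reads, a fold of 0.412 (0.397 to 0.428).

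Of the 10 most abundant singly mapped genes in the dark, Pp1s34_442V6 alone passed the 2-fold rule. Pp1s8_156V6 went from 14529 to 7992 RPKM, a fold of 0.575 (0.572 to 0.579) that lies beyond counting error but inside the 2-fold limit. Its scaled CPM decreased by 5666, more than that of any singly mapped gene that passed the rule. Pp1s52_261V6 had 6515 and 8476 RPKM, a fold of 1.36 (1.35 to 1.37). Its gain of 2023 scaled CPM exceeded the 1874 of Pp1s121_168V6, the largest gain among genes past the rule. Pp1s72_43V6 had 4005 and 2977 RPKM, a fold of 0.777 (0.766 to 0.789). For genes this abundant the counting interval is narrow, and it holds neither the spread between cultures nor the choice of scaling. The log2 fold of Pp1s8_156V6 was -0.798 here, -0.789 with DESeq2 size factors and -0.862 with RPKM, both outside its interval.

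The other abundant genes were close to their dark level. The most abundant, Pp1s67_30V6, had 19325 RPKM without and 17672 RPKM with red light, a fold of 0.956 (0.952 to 0.960). Pp1s350_5V6 had 16596 and 18323 RPKM, a fold of 1.15. Pp1s42_251V6 had 5690 and 4774 RPKM, a fold of 0.878. Across the 10 genes the folds ran from 0.439 to 1.36.

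The steadiest well-counted genes were identified by intervals lying wholly between 0.9 and 1.1, which held for 648 measured genes with a median of 4182 reads. After Pp1s67_30V6 the narrowest intervals were those of Pp1s319_5V6, whose reads were 66358 and 87266, 0.966 after scaling (0.956 to 0.976), and Pp1s109_232V6, whose reads were 48206 and 69322, 1.06 after scaling (1.04 to 1.07). Pp1s156_153V6 had a fold of 0.939 (0.927 to 0.9503) and Pp1s181_57V6 one of 0.960 (0.945 to 0.976). These genes were chosen for lying within 10% of 1 under this scaling. With the authors' RPKM the log2 fold of Pp1s156_153V6 was -0.156, against -0.091 here.

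**Figure D3:**
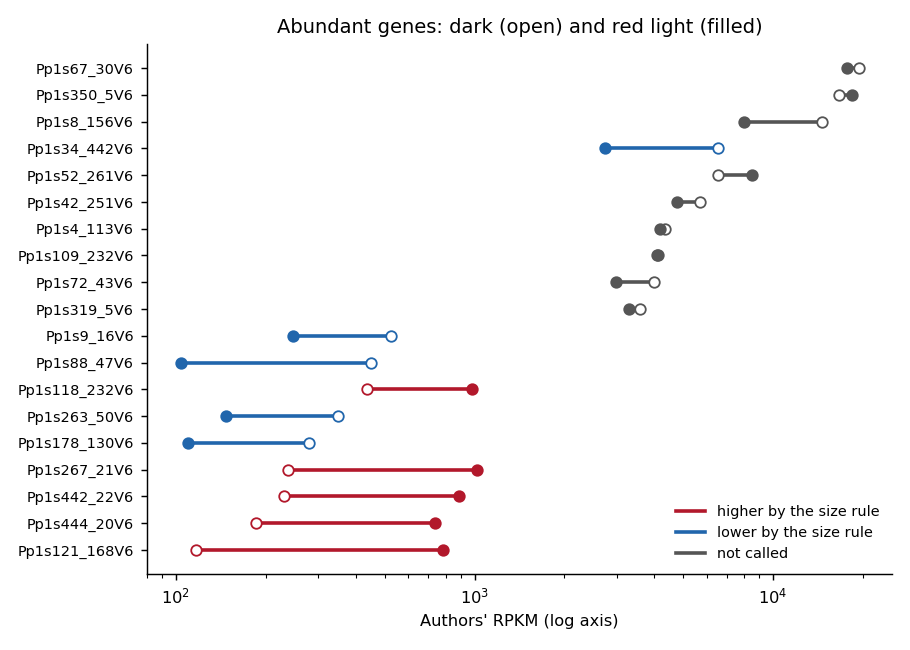
The authors' RPKM in the dark (open) and in red light (filled) on a log axis, 1 library each, for the 10 most abundant dark genes and, among genes past the 2-fold rule, the 5 largest gains and 5 largest losses in RPKM. These gains start between 117 and 438 RPKM in the dark, while among the most abundant genes Pp1s34_442V6 alone passed the 2-fold rule.

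Calls depended on the level of the gene. With the measured genes divided by mean RPKM into 5 bins of equal size, 8.52% of the lowest bin were higher and 12.8% were lower, with a median of 167 reads per gene. In the middle bin, around 11.97 RPKM, it was 3.84% and 3.18%. In the highest bin, around 51.5 RPKM and 4076 reads, 7.33% were higher and 3.12% were lower. The share of lower genes was thus largest among weakly expressed genes and near 3% in the 3 upper bins, whereas the share of higher genes was raised at both ends.

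Each bin held genes with large folds. In the second bin Pp1s273_68V6 was the highest, going from 16 to 602 reads, 27.6-fold higher (16.9 to 48.7). In the third bin Pp1s72_283V6 was the lowest, going from 473 to 71 reads, a fold of 0.110 (0.0847 to 0.142). In the fourth bin Pp1s116_30V6 was the lowest, going from 40.0 to 3.91 RPKM with 1674 and 233 reads, a fold of 0.102 (0.0887 to 0.117).

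The highest bin held the strongly reduced gene Pp1s44_37V6, which is 0.525 kb long and went from 98.5 to 5.63 RPKM. Its reads went from 1020 to 83, a fold of 0.0598 (0.0472 to 0.0748). At the other end of that bin stood Pp1s370_29V6.

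Calls also depended on gene length. In the shortest of 5 equal bins, with a median of 0.744 kb, 8.37% of the genes passed upward and 5.46% downward. In the longest, with a median of 3.29 kb, it was 3.81% and 5.05%. The median log2 fold was 0.00 in the shortest bin and -0.04 in the longest. Of the 427 measured genes under 0.3 kb, 63 (14.8%) were higher and 31 (7.26%) were lower, with a median of only 122 reads. Shorter genes also had fewer reads, 460 at the median in the shortest bin and 1596 in the longest.

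The trend with length was clearest among weakly expressed genes. In the lowest bin by level, 15.0% of the shortest genes and 5.06% of the longest were higher. In the highest bin by level the shares were 6.74% and 7.14%. The share of lower genes in the lowest bin by level was 11.0% for the shortest and 11.7% for the longest genes. The read minimum was set on both libraries together, and the red light library was deeper. At a given mean RPKM, short weak genes thus met it more easily with their reads in red light. With that library thinned to the dark total, 960 genes were higher and 916 lower, against 1020 and 924. The bins by level and length were not recomputed after thinning, so their dependence on the minimum was not tested.

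**Figure D4:**
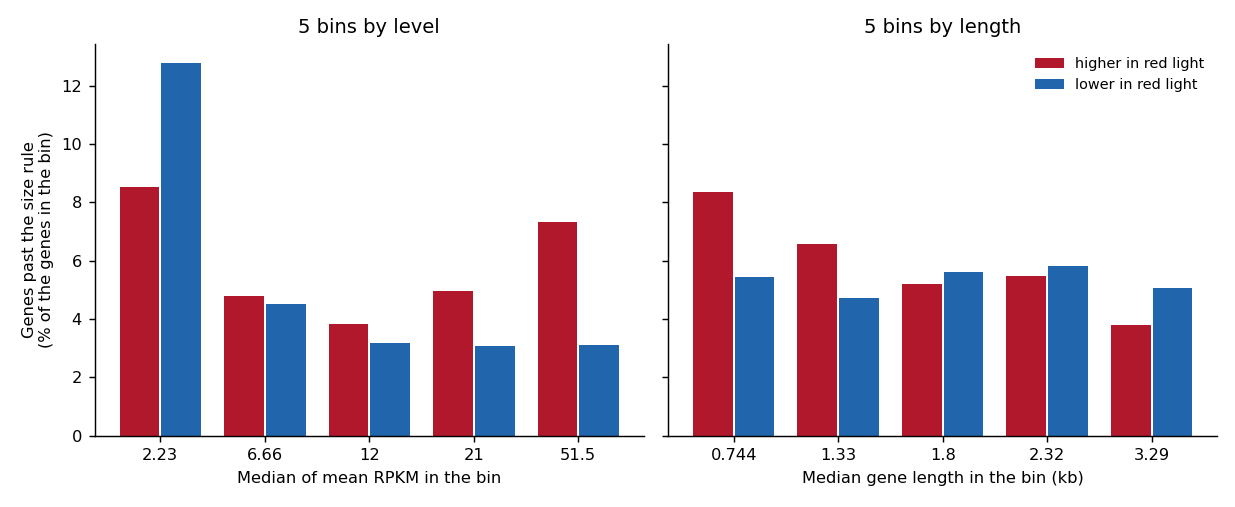
Percentage of singly mapped measured genes that were higher (red) or lower (blue) in red light, in 5 equal bins by mean RPKM (left) and by gene length (right), with the median of each bin under its bars. Lower genes make 12.8% of the lowest bin by level and 3.12% of the highest, and the share of higher genes goes from 8.37% among the shortest to 3.81% among the longest genes.

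The identifiers have a first number and a second number, and genes that share the first and follow each other in the second were compared. Whether such genes lie side by side on the genome was not checked here, since no annotation of these identifiers was used. Among 5814 measured pairs with consecutive numbers, both genes were higher in 38 and both were lower in 17. Of the higher genes in such pairs 11.2% had a higher partner, where 5.81% of all members of these pairs were higher. At a gap of 2 it was 12.5% against 5.37%, and at a gap of 10 it was 6.10% against 5.75%. The Pearson correlation of the log2 folds over pairs was 0.121 for consecutive numbers, 0.0868 at a gap of 2 and -0.0204 at a gap of 10. The pairs share their libraries and are not independent, and a step that marks the strand is not named in the library protocol, so reads of overlapping genes could count for both.

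Runs of higher genes with consecutive numbers comprised 32 pairs and 3 triplets, and lower genes formed 17 pairs. In the first triplet Pp1s57_20V6 went from 450 to 1745 reads, 2.85-fold higher (2.57 to 3.17). Its follower Pp1s57_21V6 went from 1703 to 5233 reads, 2.26-fold higher (2.14 to 2.38), and Pp1s57_22V6 from 8 to 48, 4.41-fold higher (2.07 to 10.8).

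The second triplet was led by Pp1s161_8V6, which went from 736 to 4559 reads, 4.55-fold higher (4.21 to 4.92). Its partners had few reads, 13 and 37 for Pp1s161_7V6 and 44 and 158 for Pp1s161_9V6. In the third, Pp1s169_140V6 went from 94 to 759 reads, 5.93-fold higher (4.78 to 7.43), beside Pp1s169_138V6 with 1742 and 5121 reads and Pp1s169_139V6 with 16 and 83.

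Among the pairs with the largest gain, a short weakly counted gene stood next to a long abundant one. Pp1s109_69V6 (0.240 kb), with 0 and 96 reads, preceded Pp1s109_70V6 (2.243 kb), which had 4610 and 16686 reads, 2.66-fold higher (2.57 to 2.75). Pp1s22_377V6 (0.393 kb), with 65 and 350 reads, preceded Pp1s22_378V6 (2.181 kb), which had 1485 and 10341 reads, 5.11-fold higher (4.84 to 5.40). Higher genes with a measured neighbour within 2 numbers had a higher neighbour in 10 of 46 cases (21.7%) under 0.3 kb. At 1 kb or more it was 94 of 546 cases (17.2%). The share of all measured genes with such a neighbour was not computed, so these counts have no base to be read against.

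The pubs hy2 libraries, which share no library with the wild-type pair, held 50 or more singly mapped reads for 912 of the higher and 846 of the lower genes. Over all 16706 genes measured in both genotypes, red light left 3.77% higher and 1.56% lower in pubs hy2. Among genes that were 2- to 3-fold higher in wild type, the median log2 fold in pubs hy2 was 0.45, and 85 of 530 (16.04%) were also higher there. For genes 3- to 4-fold higher it was 0.78, with 54 of 157 (34.4%), for genes 4- to 8-fold higher 0.95, with 80 of 169 (47.3%), for genes 8- to 16-fold higher 1.36, with 23 of 32 (71.9%), and for genes at least 16-fold higher 1.64, with 14 of 24 (58.3%). The median pubs hy2 fold of the higher genes thus grew with their wild-type fold, while the share also called higher was largest in the 8- to 16-fold class.

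The lower genes did not show such a gradient. Their median log2 fold in pubs hy2 was -0.17 for genes 2- to 3-fold lower in wild type, -0.12 for 3- to 4-fold, -0.17 for 4- to 8-fold and 0.15 for 8- to 16-fold. Of these classes 4.54% (26 of 573), 6.52% (9 of 138), 9.62% (10 of 104) and 4.76% (1 of 21) were also lower in pubs hy2. In the opposite direction, 28, 4, 4 and 2 genes of these classes were higher there. In the class at least 16-fold lower, 3 of 10 genes were also lower and 0 were higher. Genes that passed in neither direction in wild type had a median of 0.00. The strongly lower genes were also the more weakly counted ones, with a median of 399.5 reads in the 2- to 3-fold class and 92 reads in the class at least 16-fold lower.

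**Figure D5:**
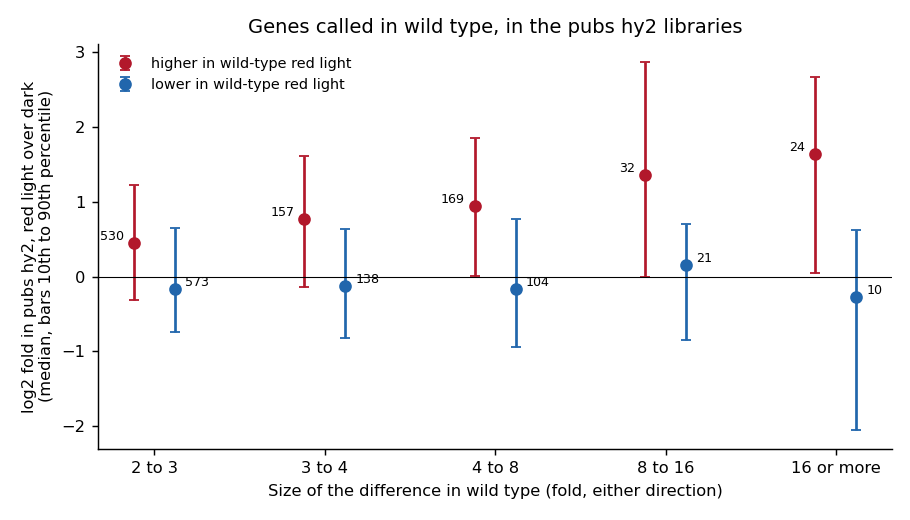
Log2 fold of red light over dark in the pubs hy2 libraries (points are medians over genes, bars the 10th to 90th percentile over genes, numbers the genes measured) for genes called in wild type, by the size of the wild-type difference. The medians of the higher genes climb from 0.45 to 1.64, while those of the lower genes lie between -0.28 and 0.15.

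Single genes followed the same division. Of the 10 genes with the highest wild-type fold, 8 were measured and singly mapped in pubs hy2, where 6 were also higher and the folds ran from 0.791 to 7.05. Pp1s25_159V6 had 166 and 1788 reads there, 7.05-fold higher, against 42.0-fold in wild type. Of the 10 genes with the lowest wild-type fold, 8 were measured in pubs hy2, where only Pp1s20_367V6 was lower, and the median fold was 1.02.

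Genes with shared sequence are less certain, because their reads had to be divided between places. Over all genes, 1110 were higher and 1005 lower, which was 6.06% and 5.49% of 18303 measured genes. By the larger of both multi-mapping shares, 11.8% of the 449 genes at 10 to 50%, 12.9% of the 319 genes at 50 to 90% and 34.5% of the 223 genes at 90% or more were called. Below 10% it was 8.39% of 584 genes, and with no multi-mapping reads 11.3% of 16728 genes. The high share of calls was therefore found in the class at 90% or more, which had a median of 716 reads per gene.

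In that class calls ran in both directions, with 40 higher and 37 lower genes. Pp1s85_186V6 had the highest fold, with 0 and 2739 reads, 670.5-fold higher (interval from 545 upward). Its dark RPKM was 0.0119, so the 0 came from rounding. Its log2 fold was 9.39 here and 11.9 with RPKM. Pp1s1158_3V6 went from 0 to 1396 reads, 342-fold higher (interval from 278 upward), with up to 99.6% multi-mapping reads. Pp1s208_186V6 had 0 and 788 reads, 193-fold higher (interval from 157 upward). In the other direction Pp1s428_9V6 had 2959 and 0 reads, 1343-fold lower, and Pp1s20_118V6 had 458 and 0 reads, 208-fold lower. The upper interval limits of their folds were 0.000916 and 0.00594. Each fold of this class was computed against 3 counts in the library at 0. Whether the reads of copies were divided differently in each library was not tested for these genes.

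The genes nearest the limit of 10% passed the 2-fold rule on neither side. Just inside stood Pp1s3_373V6 at 9.92% with 104 and 210 reads, and just outside Pp1s94_26V6 at 10.2% with 1801 and 3932 reads. The folds of the 3 genes nearest on each side ran from 1.103 to 1.48 inside and from 0.829 to 1.60 outside.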

How the data were processed

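Per the labels' protocols, poly-A RNA of wild-type and pubs hy2 protonema (1 library per group) was broken at 94 °C over 4 minutes, reverse transcribed from random primers, selected for 200 to 400 bp and given 18 PCR cycles. Estimated counts per gene were deposited, of which 95.4% to 95.6% per library were whole, and the rest were rounded here. Per the file headers, the tables deposited by the authors also give RPKM, the fraction of multi-mapping reads and a length in kilobases. Aligner, genome build and annotation are not given in the sources used here.

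Reads were scaled by TMM factors over the 4 libraries (edgeR 4.0.16, R 4.3.3), 1.04 for wild-type dark and 1.02 for wild-type red light. Folds have an exact 95% Clopper-Pearson interval of the share of reads, scaled by library size. Where 1 library had 0 reads, the fold was set against 3 counts in that library (a scaled CPM of 0.164 for the dark library and 0.120 for the red light library). The rule for calls was tested on simulated data. Alternatives changed the scaling (DESeq2 1.42.0 size factors, totals, RPKM), the read minimum, the fold, the depth, the rounding, the assumed variation and the multi-mapping limit. Further steps ran in Python 3.11.15 (scipy 1.17.1, pandas 2.3.3, numpy 2.4.6, matplotlib 3.10.9).

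Named genes are the 10 highest and 10 lowest folds, the 5 largest gains and losses in CPM and RPKM, and the extremes of each level bin. They include the 10 most abundant dark genes and up to 3 genes each way at 0 in 1 library with the most reads in the other. Also named are the longest runs and the 5 narrowest intervals within 0.9 to 1.1. The 3 extremes each way among multi-mapping genes and those nearest the 10% limit complete the list. The genes, lists and rules were chosen with earlier results of these data known. The bins by level and length together, and the neighbours by length, were added after the data were seen.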

Additional observations from a re-analysis of the deposited data

Results flagged for a closer look

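For 11 of the named genes, the fold of red light over dark lay above 1 in one genotype and below 1 in the other, with 1 outside both counting intervals. No replicates exist against which this difference could be tested, and it was not tested. As the log2 fold in pubs hy2 minus that in wild type, the value was -6.78 for Pp1s118_26V6 (whose reads in pubs hy2 were up to 11.3% multi-mapping), -6.51 for Pp1s1_366V6 and -2.59 for Pp1s169_139V6, which were higher in the wild-type red light library and lower in that of pubs hy2. It was 5.29 for Pp1s9_28V6 and 5.08 for Pp1s49_2V6, which were near their lowest in the wild-type red light library, with 3 and 7 reads. Among abundant genes it was 2.23 for Pp1s34_442V6 and 1.45 for Pp1s8_156V6. Their dark RPKM was 6517 and 14529 in wild type, against 864 and 4278 in pubs hy2. Pp1s1_366V6 had 1 dark read in wild type and 577 in pubs hy2, so these folds start from unlike dark levels. The difference in log2 fold was 0.66 for Pp1s319_5V6, 0.43 for Pp1s67_30V6 and 0.23 for Pp1s156_153V6, whose wild-type folds were within 10% of 1. The multi-mapping gene Pp1s292_31V6 had 10.95, with 0 reads set to 3 counts. The genes were named for extreme folds or levels, which favours such differences.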

How the results depend on the processing

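The library scaling moved the median log2 fold of singly mapped genes by -0.065 (RPKM) to 0.018 (TMM over the 2 wild-type libraries). It moved the counts by less than 1.5 times, but it decided which direction held more genes. The authors' RPKM gave 942 higher and 1033 lower singly mapped genes, and DESeq2 size factors 1036 and 917. The read minimum mattered most for lower genes: with at least 200 reads 551 singly mapped and 598 of all genes were lower, and with no minimum 1456 and 1578. With a fold limit of 1.5 there were 2046 higher and 2152 lower singly mapped genes, and 2202 and 2320 of all genes; with a limit of 3 it was 437 and 308, and 486 and 340. An assumed biological coefficient of variation of 0.2 left 999 and 907 singly mapped genes. With 1 library per group this variation could not be estimated, so these counts do not show whether the calls would recur between cultures. Thinning the red light library to the dark total left 960 and 916. Of 68 named genes, 3 had a fold outside its main counting interval with DESeq2 size factors, 15 with library totals and 24 with RPKM. None of the 57 that passed the 2-fold rule changed direction under these 3 scalings. Such small shifts could hardly turn a gene that differed at least 2-fold, so this says little about the calls. Among the others Pp1s4_113V6, with a log2 fold of 0.0024, did, to -0.04 with library totals and -0.06 with RPKM. No paired analysis was possible because each group has 1 library.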
